A study of Mus musculus with 6 samples.

Results

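Chemokines and colony-stimulating factors are secreted signals that direct the movement, growth and survival of leukocytes, and fat cells and their precursors make several of them. The set examined here was 10 genes chosen by name: the CC chemokine genes Ccl2, Ccl7, Ccl8 and Ccl9, the CXC chemokine genes Cxcl1, Cxcl5, Cxcl12 and Cxcl14, the CX3C chemokine gene Cx3cl1, and Csf1, which encodes the macrophage growth factor CSF1. Of these 10 genes, 8 had a row among the 13962 genes of the table used here, and each of the 8 passed the filter on low counts that left 13192 genes for testing. Ccl8 and Cxcl14 had no row in that table and were not analysed here.

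The chemokine classes are named for the spacing of the first conserved cysteines of the protein. Most chemokines are soluble ligands of G protein-coupled receptors, and CX3CL1 is made as a membrane protein with the chemokine domain on a stalk. CCL2 and CCL7 are attractants of monocytes that act through the receptor CCR2, CXCL1 and CXCL5 attract neutrophils through CXCR2, and CXCL12 retains hematopoietic stem cells in the bone marrow through CXCR4. In adipose tissue CCL2 is known for its part in the recruitment of macrophages in obesity.

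The libraries came from mouse beige adipocytes, a type of fat cell in white adipose tissue that can take on features of brown fat. Preadipocytes from the inguinal fat of the C57BL/6 background, immortalized with the Large T antigen, carried 2 floxed alleles of Tle3, the gene of a Groucho family co-repressor, and the tamoxifen-inducible recombinase CreERT2 in both groups. All cells were grown with insulin (20 nM) and T3 (1 nM) and differentiated with isobutylmethylxanthine (0.5 mM), dexamethasone (0.5 uM), indomethacin (0.125 mM) and rosiglitazone (1 uM), and the last of these was kept in the medium afterwards. On day 4 the control cells (genotype TLE3F/F CreERT2, EtOH; n = 3) were given ethanol and the others (TLE3F/F CreERT2, 4-OH-tamoxifen; n = 3) were given 500 nM of the drug, each for 24 hours, and all were collected on day 10. The promoter that drives CreERT2 is not given in the sources used here, nor is it stated whether the replicates were separate cultures, so a p-value here reflects variation among these 6 libraries, part of which may be technical. Cells without Cre given the drug were not analysed here, so deletion, drug and Cre activity cannot be told apart.

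Total counts ran from 14606228 to 19294632 per library. Tle3 stood at 151.4, 151.3 and 152.1 CPM (counts of the gene scaled to the library's size after TMM correction) in controls 1 to 3 and at 286.9, 288.9 and 294.2 CPM in the libraries labelled knockout 1 to 3, so the targeted transcript was higher, not lower, under the knockout label (log2 fold change 0.94, SE 0.0378, edgeR adjusted p 3.54e-07). The counts cover the whole gene and do not isolate the deleted part, so they cannot check the label. Each direction below is that of the libraries labelled knockout relative to the controls. Markers of the labelled cell type were present: Adipoq, Fabp4 and Plin1 were at 521.2 CPM or more, 3761 CPM or more and 464.3 CPM or more in every library. Of 15 markers of macrophages and other leukocytes, 11 had no row, among them Ptprc, Adgre1 and Itgam. The other 4 summed to between 5.483 and 7.402 CPM in controls and between 6.696 and 8.158 CPM in the libraries labelled knockout. Here and below, a gene listed under a name other than the one searched would count as having no row.

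The sequence before the start site is shown for Csf1, which was called as lower, and for Cxcl1, because both hold a match to the kappaB consensus motif, the letters bound by NF-kB factors that switch on many chemokine genes. RefSeq (GRCm38.p6) sequences matched 7 of the 10 genes, 5 of them measured; Ccl2, Ccl7 and Cxcl5 are not shown. The 250 bases upstream are printed 5′ to 3′ on the strand of the gene, with kappaB matches in capitals. The Csf1 stretch is chr3:107760470-107760719 on the minus strand and the Cxcl1 stretch is chr5:90890995-90891244 on the plus strand.
Csf1: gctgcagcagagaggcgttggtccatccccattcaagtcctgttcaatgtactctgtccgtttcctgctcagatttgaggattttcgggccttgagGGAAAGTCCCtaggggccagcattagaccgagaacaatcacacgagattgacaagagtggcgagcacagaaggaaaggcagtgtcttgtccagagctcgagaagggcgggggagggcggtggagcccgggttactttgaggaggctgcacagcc
Cxcl1: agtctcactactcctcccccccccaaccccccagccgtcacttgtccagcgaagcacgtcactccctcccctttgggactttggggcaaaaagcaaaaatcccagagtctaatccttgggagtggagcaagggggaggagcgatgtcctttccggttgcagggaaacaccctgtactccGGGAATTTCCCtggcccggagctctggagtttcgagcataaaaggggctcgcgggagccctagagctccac
In Csf1 the match lay on the other strand, 154 to 145 bases before the start, and read GGGACTTTCC in that direction. In Cxcl1 a match on the gene's strand (GGGAATTTCC, 71 to 62 bases before the start) overlapped one on the other strand (GGGAAATTCC, 70 to 61 bases before it), so the 11 capitals hold 2 matches. Ccl9 held a match as well (GGGGCTTTCC on the other strand, 35 to 26 bases before the start), while Cxcl12 and Cx3cl1 had none in this window. The motif was searched on both strands and occurs in 7.25% of all 32851 promoter windows of the same length. The GC box GGGCGG was found in Csf1, Cxcl12 and Cx3cl1, and in 32.7% of all windows, and TATAAA in Ccl9 and Cx3cl1, and in 12.4% of all windows. These matches are letters only, and the series holds no measure of binding.

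Csf1 and Ccl2 fell in the libraries labelled knockout, and none of the 8 genes rose. Csf1 fell by 13.4% and Ccl2 fell by 26.4%. In the fit over all genes 5.44% of the 13192 tested genes fell and 6.91% rose at an adjusted p under 0.05, beside 2 and 0 of the 8. The libraries labelled knockout lay below every control for these 2 genes and for 15.8% of all tested genes. All 8 estimates lay below 0, as did 50.6% of those of all tested genes, and their median log2 fold change was -0.28 beside 0.00 for all tested genes. Without control 3 only 6 of the 8 lay below 0 and the median was -0.14. The number of the 8 that fell was 1 without control 1 or knockout 1, 0 without knockout 3 and 3 without control 2.

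**Figure D1:**
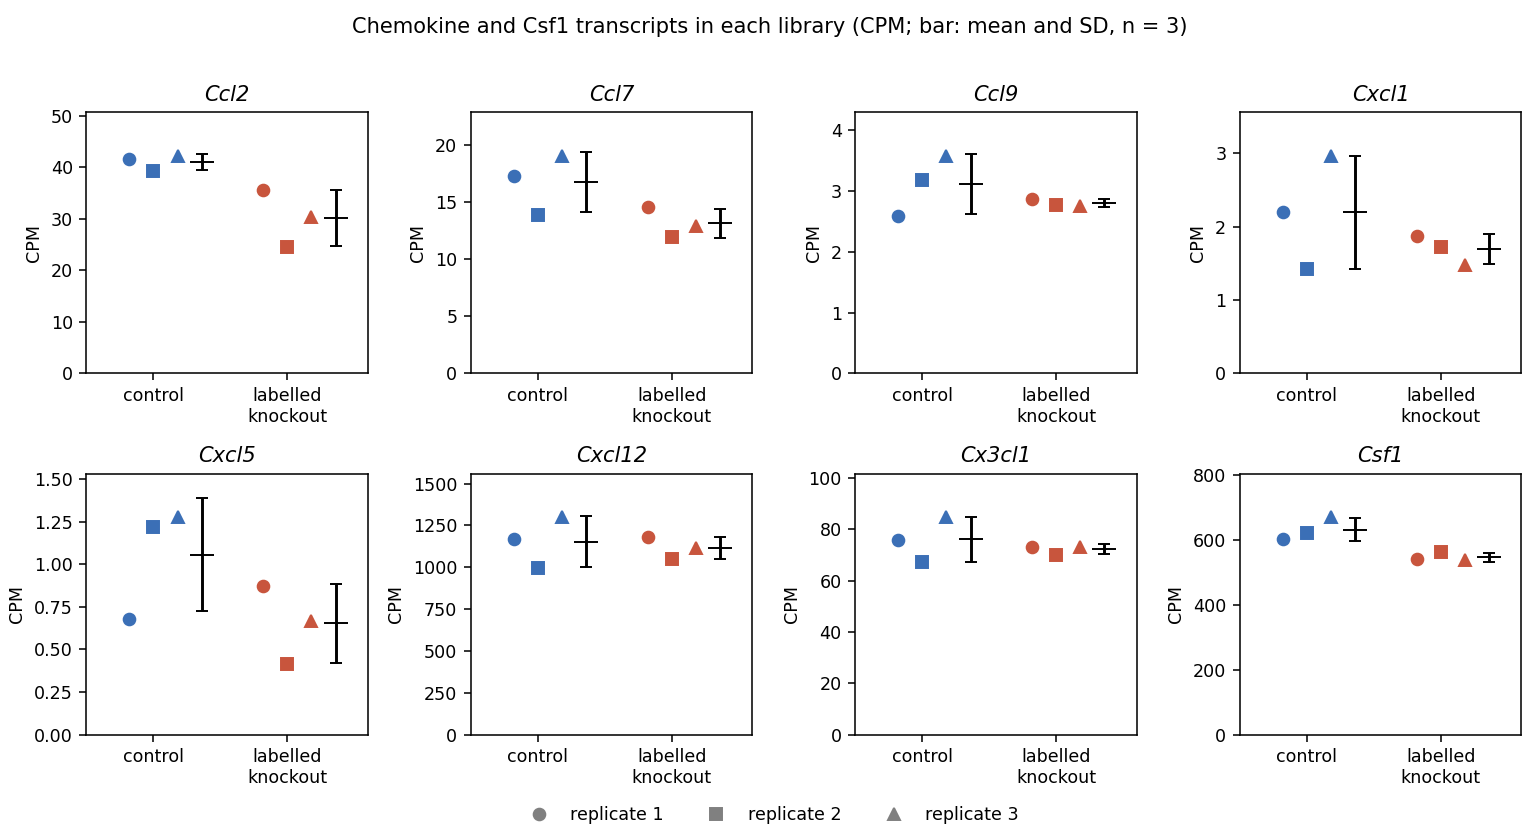
Each panel shows 1 gene, with CPM on a linear axis from 0, the 3 control libraries at left and the 3 libraries labelled knockout at right, and a bar for the mean and SD of each group. The groups are separate for Ccl2 and Csf1 and overlap for the other 6 genes.

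Ccl2 (ENSMUSG00000035385), the gene of the main monocyte attractant, was at 41.5, 39.26 and 42.16 CPM in controls 1 to 3 and at 35.54, 24.54 and 30.27 CPM in the libraries labelled knockout 1 to 3. The controls lay close together, with a coefficient of variation of 3.72%, and the libraries labelled knockout were all lower and spread more widely, at 18.3%. The control mean was 40.98 ± 1.52 CPM and that of the other group 30.12 ± 5.5 CPM (SD, n = 3 each). The log2 fold change was -0.44 (SE 0.103, 95% interval -0.67 to -0.21; by the edgeR quasi-likelihood test, adjusted p 0.0191). By an exact permutation test of the CPM (two-sided), p was 0.1 for this gene and for Csf1; 3 libraries against 3 cannot give less. Without knockout 2, the lowest library, the log2 fold change was -0.32 and was still called (adjusted p 0.0373). It was not called without control 1 (adjusted p 0.0702) or knockout 3 (adjusted p 0.0761), and over all 13 alternative settings the adjusted p ran from 0.00135 to 0.0761.

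Ccl7 (ENSMUSG00000035373) encodes a second ligand of CCR2 and, by the RefSeq gene order, is the next gene after Ccl2 on chromosome 11. It was at 17.26, 13.88 and 19.04 CPM in controls and at 14.53, 11.96 and 12.92 CPM in the libraries labelled knockout. Control 2 lay below the highest of the other group, so the groups overlapped. Its log2 fold change of -0.36 (SE 0.119, 95% interval -0.62 to -0.09) had an unadjusted p of 0.0126 and missed the threshold after adjustment over all genes (edgeR adjusted p 0.0767). Without control 2 it was called (log2 fold change -0.46, adjusted p 0.0126), and over the 13 settings the adjusted p ran from 0.0126 to 0.248. Further along the same cluster, Ccl11 was listed at 0.282 to 0.8296 CPM and was not tested, and Ccl12, Ccl8 and Ccl1 had no row. Of the 6 genes of this cluster named here, only Ccl2 and Ccl7 were listed above 1 CPM.

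Ccl9 (ENSMUSG00000019122), a CC chemokine gene from another cluster on chromosome 11, was expressed at a low level. It had 46, 47 and 70 counts in controls and 46, 40 and 41 counts in the libraries labelled knockout, or 2.594, 3.181 and 3.573 CPM against 2.868, 2.765 and 2.746 CPM. The groups overlapped, and the interval of the log2 fold change reached from -0.54 to 0.22 (estimate -0.16, edgeR adjusted p 0.593). A change of the size seen for Ccl2 (-0.44) lay within that interval and was not excluded. Its neighbour Ccl5, the gene of a T cell attractant, was at 4.86 ± 1.48 and 5.286 ± 0.514 CPM (log2 0.10, adjusted p 0.792), and the next genes in the cluster, Ccl6, Ccl3 and Ccl4, had no row.

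The neutrophil attractant genes Cxcl1 and Cxcl5 were the least certain. Cxcl1 (ENSMUSG00000029380) had 39, 21 and 58 counts in controls and 30, 25 and 22 counts in the libraries labelled knockout, or 2.199, 1.421 and 2.961 CPM against 1.871, 1.728 and 1.473 CPM. Its lowest and its highest value were both in controls, which differed 2.08-fold among themselves. The log2 fold change was -0.41 with an interval from -0.99 to 0.17 (adjusted p 0.35). Cxcl5 (ENSMUSG00000029371) had 12, 18 and 25 counts in controls and 14, 6 and 10 counts in the libraries labelled knockout, or 0.6767, 1.218 and 1.276 CPM against 0.8729, 0.4148 and 0.6696 CPM. It had the most negative estimate of the 8 genes, at -0.67, and also the widest interval, from -1.45 to 0.10 (adjusted p 0.243). Both genes lie in a CXC cluster on chromosome 5, where the neighbours Ppbp, Pf4, Cxcl3, Cxcl15 and Cxcl2 had no row.

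Csf1 (ENSMUSG00000014599), whose product supports the survival and growth of macrophages, was at 602.7, 622.2 and 670.8 CPM in controls and at 541.4, 562.3 and 537.7 CPM in the libraries labelled knockout. Every library labelled knockout was below every control. The control mean was 631.9 ± 35.1 CPM and that of the other group 547.1 ± 13.2 CPM (SD, n = 3 each). On the log2 scale the difference was -0.21, with an SE of 0.0496 and an interval from -0.32 to -0.10 (edgeR quasi-likelihood test, adjusted p 0.021). This value rested on 8030 to 13141 counts per library. It was not called without knockout 1 (adjusted p 0.0645) or knockout 3 (adjusted p 0.111), and the adjusted p over the 13 settings ran from 0.00327 to 0.111.

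Cxcl12 and Cx3cl1 were well measured and did not pass the threshold. Cxcl12 (ENSMUSG00000061353) was at 1166, 993.3 and 1299 CPM in controls and at 1180, 1048 and 1114 CPM in the libraries labelled knockout, which all lay within the range of the controls. Its log2 fold change was -0.05 with an interval from -0.24 to 0.14 (adjusted p 0.756). Cx3cl1 (ENSMUSG00000031778) was at 75.9, 67.41 and 84.68 CPM in controls and at 73.2, 69.9 and 73.26 CPM in the other group, again within the control range. The estimate was -0.08 with an interval from -0.24 to 0.08 (adjusted p 0.522). For both genes a fall as large as the 26.4% of Ccl2 lay outside the interval, whose lower end was -15.2%. A change of the size seen for Csf1 (log2 fold change -0.21) lay within both intervals and was not excluded. Both estimates turned to the other side of 0 without control 3, at 0.05 and 0.01. On chromosome 8 the neighbours of Cx3cl1, the chemokine genes Ccl22 and Ccl17, had no row.

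**Figure D2:**
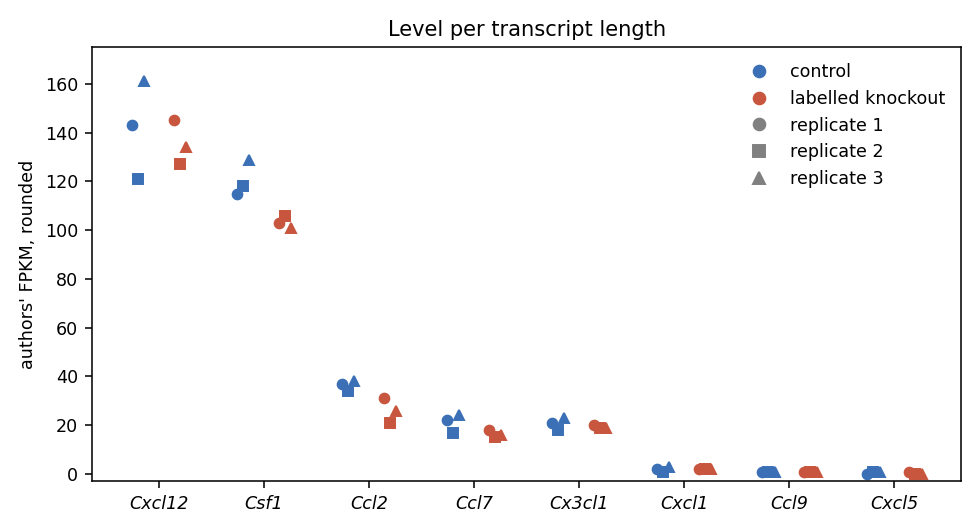
The vertical axis gives the authors' FPKM, rounded to whole numbers, for the 8 genes on the horizontal axis, with controls in blue, libraries labelled knockout in red and a marker shape per replicate. Cxcl12 and Csf1 stand above 100 in every library and Cxcl1, Ccl9 and Cxcl5 at 3 or less.

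Levels between genes can be set side by side only per transcript length, for which the authors' deposited FPKM were used. In controls 1 to 3 the rounded FPKM of Cxcl12 was 143, 121 and 161, and that of Csf1 was 115, 118 and 129, so the top pair overlapped. Ccl2 followed at 37, 34 and 38 and did not overlap either neighbour. Ccl7 at 22, 17 and 24 and Cx3cl1 at 21, 18 and 23 could not be ordered. Cxcl1 was at 2, 1 and 3, Ccl9 at 1 in each control, and Cxcl5 at 0, 1 and 1, and these low genes are not resolved by rounded values. In the libraries labelled knockout, Cxcl12 (145, 127 and 134) and Csf1 (103, 106 and 101) no longer overlapped, and Ccl2 was at 31, 21 and 26. The FPKM of Ccl7 (18, 15 and 16) was there below that of Cx3cl1 (20, 19 and 19) in each library.

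The 8 genes had the same highest control library. Control 3 was the highest control for 8 of 8 genes, whereas it was the highest control for 36.4% of all tested genes. The lowest control was control 2 for 5 of the 8 genes and control 1 for the other 3. Over all tested genes these shares were 35.9% and 27.9%. Among the libraries labelled knockout, number 1 was the highest for 6 of the 8 genes and number 2 the lowest for 5, beside 33.2% and 34.4%. Markers of fibroblasts and preadipocytes were also at their highest in control 3: the 10 of 12 with a row summed to 18720, 17355 and 19905 CPM in controls 1 to 3 and to 15403, 14935 and 15746 CPM in the libraries labelled knockout. Most of that sum came from Col1a1, Col3a1 and Fn1, and without these 3 genes it was 1226, 1106 and 1378 CPM in controls and 1165, 1079 and 1127 CPM in the other group, so that the groups overlapped and control 3 was still the highest. The 12 adipocyte markers summed to 13642, 14067 and 11760 CPM in controls and to 13479, 15483 and 14919 CPM in the other group. The part of these markers in the chemokine values was not tested. In bulk samples, fewer cells of a type and less RNA per cell cannot be told apart.

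**Figure D3:**
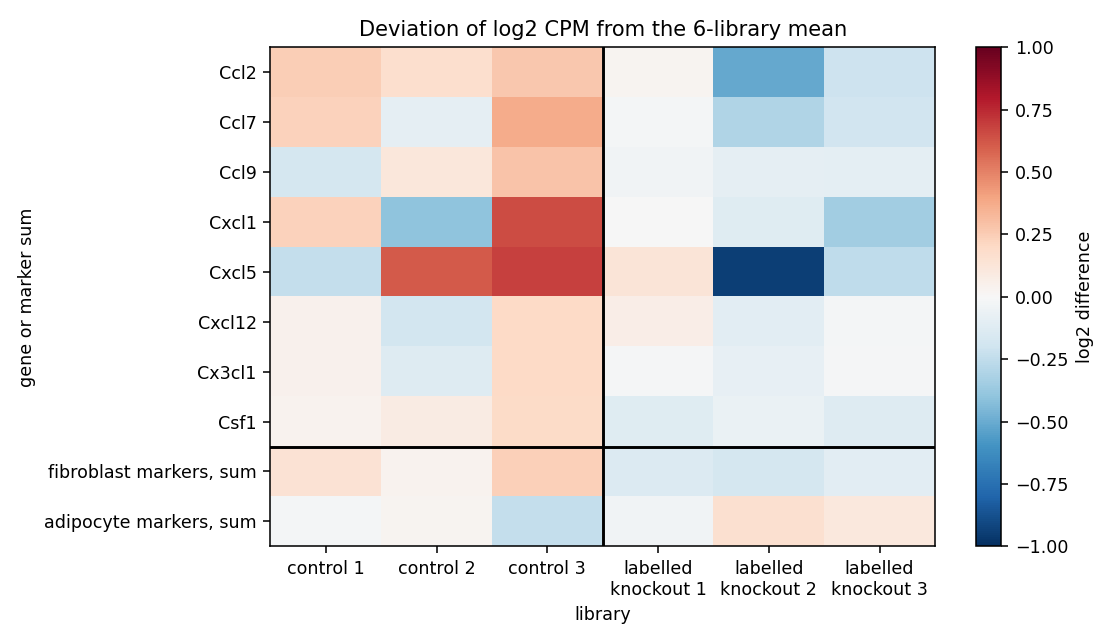
Colours give the difference of log2 CPM from the mean over the 6 libraries, in columns by library, for the 8 genes and, below the line, for the summed fibroblast and adipocyte markers. The column of control 3 is positive for all 8 genes, from 0.19 for Csf1 to 0.68 for Cxcl5, and for the fibroblast sum (0.23), and negative for the adipocyte sum (-0.23).

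Among the single fibroblast and preadipocyte markers, Lum, Fn1, Thy1 and Pdgfra fell and Dlk1 rose. Lum, a matrix proteoglycan gene, changed by -1.04 on the log2 scale (adjusted p 0.000607), the fibronectin gene Fn1 by -0.45 (adjusted p 0.00283), Thy1 by -0.42 (adjusted p 0.00473), and the growth factor receptor gene Pdgfra by -0.38 (adjusted p 0.0134). Dlk1, a preadipocyte gene, changed by 0.72 (adjusted p 0.00363). Pdgfra was not called without knockout 2 (edgeR adjusted p 0.0541) or knockout 3 (edgeR adjusted p 0.0589). Its exons overlap predicted genes on the other strand and Mir7025 on the same strand. Exons of Fn1, and of the adipocyte marker Lipe named below, each overlap a gene on the other strand. The median of the 10 tested markers was -0.14, beside 0.00 for all tested genes. The shares of all tested genes that fell and rose were 5.44% and 6.91%. Of the 12 adipocyte markers, Cidea, Ucp1, Lipe and Cd36 rose and 0 fell, with a median of 0.20; Lipe and Cd36 lost their calls (adjusted p 0.0612 to 0.174) when control 1, control 3, knockout 2 or knockout 3 was left out. Of the endothelial cell markers, Cdh5, Cldn5 and Emcn had no row, and the 5 markers with a row summed to 7.981 CPM at most.

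Few other ligands of the same families had a row. Of 32 further chemokine and colony-stimulating factor genes, 10 had a row and 7 were tested. By edgeR, DESeq2 or limma-voom 0 of the 7 passed the threshold, beside 12.3% of all tested genes in either direction by edgeR. The median log2 fold change of the 7 was -0.08, from -0.58 for Cxcl16 to 0.71 for Cxcl10. Before adjustment, 2 of the 7 were under 0.05 in edgeR. The 2 with the smaller p were Cxcl10 (adjusted p 0.144) and Ccl25 (log2 -0.33, adjusted p 0.17), and exons of both overlap another gene on the other strand in GENCODE M21, so their counts are uncertain. Csf2 and Csf3, the genes of the granulocyte-macrophage and the granulocyte factor, had no row. Il34, which encodes another ligand of the CSF1 receptor, was at no more than 0.7895 CPM in any library.

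Most receptors of these ligands had no row under the names searched. Of 27 receptor genes, 5 had a row and 2 were tested. Ccr1, Ccr2, Cxcr2, Ackr3 and Cx3cr1 had no row, and Cxcr4, the receptor of CXCL12, was at 0.4018 to 0.7331 CPM and was not tested. Csf1r, the receptor of CSF1, was at 1.353, 1.151 and 1.276 CPM in controls and at 1.746, 2.281 and 1.54 CPM in the libraries labelled knockout, which were higher in every library (log2 0.54, adjusted p 0.141); its exons overlap Hmgxb3 on the other strand. Csf2rb changed by -0.47 (adjusted p 0.414). Of the 2 tested receptor genes edgeR, DESeq2 and limma-voom each called 0, beside 12.3% of all tested genes called by edgeR. In edgeR, 1 of the 2 had an unadjusted p under 0.05.

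Of 6 tested genes for proteases that release or trim these ligands and their inhibitor, 1 rose and 0 fell. Over all tested genes 6.91% rose and 5.44% fell. The median of the 6 on the log2 scale was -0.13. Adam10 and Adam17, which encode sheddases of CX3CL1 (ADAM17 also of CSF1), had log2 fold changes of -0.08 (adjusted p 0.192) and -0.04 (adjusted p 0.547). The estimates of the matrix metalloproteinase genes were -0.25 for Mmp2 (adjusted p 0.168), -0.18 for Mmp14 (adjusted p 0.143) and -0.48 for Mmp9, which was under 1 CPM in every library (adjusted p 0.396). Timp3, whose product inhibits ADAM17, rose by 13.7% (961.5 ± 63.1 to 1093 ± 10.9 CPM, adjusted p 0.0451). The call for Timp3 was lost under 7 of 13 settings (adjusted p up to 0.153), among them library size alone (adjusted p 0.0699) and leaving out any 1 library other than control 3, and its exons overlap those of Syn3 on the other strand.

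Genes that act upstream of chemokine transcription were given by 2 lists. Of 25 genes of the NF-kB pathway, all tested, 1 fell and 0 rose, beside 5.44% and 6.91% of all tested genes. Estimates were below 0 for 24 of the 25 and for 50.6% of all tested genes. The median of the 25 was -0.08, a small shift, beside 0.00 for all tested genes. The 1 that fell was Ikbkg, the regulatory subunit of the IkB kinase (88.33 ± 4.26 to 77.03 ± 3.22 CPM, adjusted p 0.0303). Its exons overlap G6pdx on the other strand, and it was not called by DESeq2 (adjusted p 0.0527), nor without any 1 library other than control 3 (adjusted p 0.0592 to 0.107). The subunit genes Nfkb1 (log2 -0.14, adjusted p 0.0529) and Rela (log2 -0.16, adjusted p 0.0807) and the feedback inhibitor genes Nfkbia (log2 -0.07, adjusted p 0.496) and Tnfaip3 (log2 -0.07, adjusted p 0.547) did not pass the threshold.

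Of 20 inflammatory cytokines and receptors, 15 were tested, 4 fell and 0 rose, and the median was -0.16. Over all tested genes 5.44% fell and 6.91% rose. Il6ra, the binding subunit for interleukin-6, was at 18.72, 20.31 and 20.47 CPM in controls and at 11.41, 10.92 and 12.66 CPM in the libraries labelled knockout (log2 -0.77, adjusted p 0.000412). Tlr4, the lipopolysaccharide receptor gene, was at 47.64 ± 2.68 and 37.33 ± 0.763 CPM (log2 -0.35, adjusted p 0.00289). Both chains of the interleukin-1 receptor were lower, Il1r1 by -0.24 (adjusted p 0.0128) and Il1rap by -0.27 (adjusted p 0.0109) on the log2 scale. Groups did not overlap for 7 of the 15, these 4 among them, and for 31.8% of all tested genes. The calls of the 4 were lost in 1 case, that of Il1r1 without knockout 3 (edgeR adjusted p 0.0731). The exons of Il6ra and Il1rap overlap predicted genes on the other strand. Tnf, Il1a, Il1b, Ifng and Il17a had no row, and Il6 was at 1.244 to 2.45 CPM (log2 -0.32, adjusted p 0.504).

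**Figure D4:**
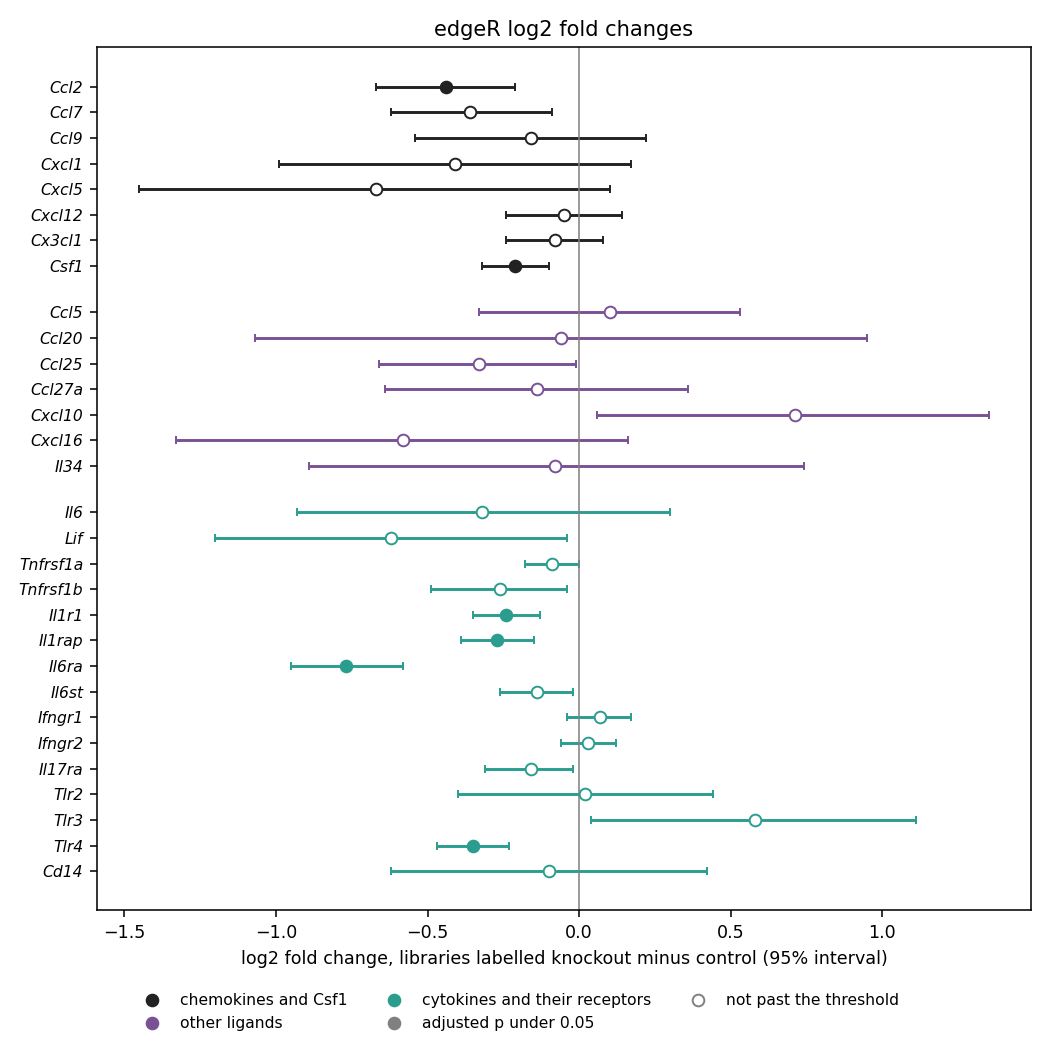
Points are log2 fold changes of the libraries labelled knockout against the controls, with 95% intervals, for the 8 chemokine and Csf1 genes, the 7 other tested ligands and the 15 tested cytokines and receptors; filled points have an adjusted p under 0.05. Ccl2, Csf1, Il6ra, Tlr4, Il1r1 and Il1rap are filled, and each lies to the left of 0.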

How the data were processed

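Poly(A) RNA of 6 libraries was measured, 3 per group. The authors deposited raw counts per gene, per the file headers, and FPKM values that they rounded to whole numbers, treated here as a score and used only to order levels between genes. Novoalign 2.8, Picard and DESeq2 and the build mm9 are named in the submitters' processing notes, with no roles; the counter, its annotation and its strand setting were not given in the sources used here. The table lists genes with at least 10 counts in some library.

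The gene set and the lists were chosen with earlier results of these data known. Rows were matched by exact gene name, and other names of a gene were not searched. Of rows sharing a name, that with most counts was taken. The test was that of edgeR 4.0.16 under R 4.3.3 (expression filter, TMM factors, quasi-likelihood test, group alone), which tested 13192 genes and set 770 aside; p-values were adjusted by Benjamini-Hochberg over all tested genes, with a threshold of 0.05 for "rose" and "fell". CPM use TMM-scaled library sizes, and the SE is the size of the log2 fold change over the root of F. The named genes were every member, the called genes of each list (at most 6) and the known receptors of the members; other list genes named were chosen after their values were seen. Alternatives were DESeq2 1.42.0, limma-voom (limma 3.58.1), other scalings and filters, a replicate block and each library left out. Exon overlaps came from GENCODE M21. The fit was tested on simulated data in which all genes had the same spread beyond counting noise. Only genes with higher counts were changed there, so changes in low-count genes were not covered. Replicate libraries differed beyond counting noise (chi-square per degree of freedom from 2.95 to 7.87).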

Additional observations from a re-analysis of the deposited data

How the results depend on the processing

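The count of the 8 genes that rose stayed at 0 under all 13 alternatives. The count that fell was 2 with DESeq2, limma-voom, other scalings and other filters, and ran from 0 to 3 when 1 library was left out. Over the same fits, genes that rose numbered from 332 to 1025 and genes that fell from 289 to 870. When 1 library was left out, the log2 fold change of Cxcl12 ran from -0.15 (without control 2) to 0.05 and that of Cx3cl1 from -0.16 (without control 2) to 0.01; the values above 0 were those without control 3, and the cause was not tested. With a filter at a mean of 5 CPM, Ccl9, Cxcl1 and Cxcl5 were not tested. With the replicate block, 1032 genes rose and 777 fell, and of the 8 genes 3 fell and 0 rose, the third being Ccl7 (-0.35, adjusted p 0.0333). Whether the numbers pair the libraries was not settled. Deviations from the group means correlated at -0.05, 0.22 and 0.03 for numbers 1 to 3. The highest correlation of control 3 was with knockout 1 (0.27). Deviations from a mean of 3 libraries are not independent of each other, so these correlations cannot decide the pairing. Low counts limit Cxcl1, Cxcl5 and Ccl9.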

Other observations

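Cxcl10, the gene of an interferon-induced attractant of T cells, was compared with the 8 chemokine and Csf1 genes shown above. Relative to its mean, Cxcl10 varied more among the libraries labelled knockout than any of them. It was at 19, 19.56 and 27 CPM in controls 1 to 3 and at 33.8, 18.6 and 55.11 CPM in the libraries labelled knockout 1 to 3, so that 1 library of that group lay below every control and the other 2 above. Tlr3, a double-stranded RNA sensor that interferon also induces, was at 8.741, 7.648 and 9.239 CPM in controls and at 12.28, 7.605 and 18.48 CPM in the libraries labelled knockout, in the same order. Neither passed the threshold by edgeR (log2 0.71, adjusted p 0.144, and log2 0.58, adjusted p 0.149). Both passed without knockout 2 (log2 1.01, adjusted p 0.0149, and log2 0.83, adjusted p 0.0168) and with the replicate block (adjusted p 0.0108 and 0.0295). These were the only 2 of 13 settings in which either was called. Without knockout 3, where both were highest, the edgeR estimates were 0.26 (adjusted p 0.557) for Cxcl10 and 0.22 (adjusted p 0.548) for Tlr3. Ccl5, another interferon-induced chemokine gene, was at 5.799, 4.77 and 5.29 CPM in the libraries labelled knockout 1 to 3 and at 4.511, 3.587 and 6.483 CPM in controls. These genes were singled out after their values were seen.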
